A study of Mus musculus with 17 samples.

Results

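Kainate receptors were examined here at the level of the genes that encode them: the 5 channel subunits Grik1, Grik2, Grik3, Grik4 and Grik5 (proteins GluK1 to GluK5) and the auxiliary subunits Neto1 and Neto2. These 7 genes were chosen by name out of 55450 genes in the count lists, and all 7 had enough reads to be among the 17615 genes tested. RNA-seq of whole hippocampus was available as 17 libraries from adult C57BL/6J wild-type mice. Control sgLacZ mice (5 libraries, the study's sham control Ctrl-dCas9A) did not have epilepsy, whereas epileptic sgLacZ mice (6 libraries, epileptic Ctrl-dCas9A) and epileptic sgKcna1 mice (6 libraries, epileptic Kcna1-dCas9A) had received kainic acid in the right amygdala, which caused status epilepticus and then chronic spontaneous seizures. All 3 groups carried adeno-associated viruses in the hippocampus with dCas9-VP64, a Cas9 that cannot cut DNA and carries an activator of transcription, switched on by doxycycline in the diet. The guide sgKcna1 directs this activator to the promoter of the potassium channel gene Kcna1, and sgLacZ targets a bacterial gene as a control. The virus that makes the switch active used a Camk2a promoter, which favours excitatory neurons, and was given in the right ventral hippocampus, whereas the RNA came from every cell of the tissue. No comparison of the guides without epilepsy was made, since libraries of control mice given sgKcna1 were not used here.

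Kainate receptors are tetrameric glutamate-gated cation channels. GluK1, GluK2 and GluK3 form channels on their own, whereas the high-affinity subunits GluK4 and GluK5 reach the surface as working channels only together with one of them. Neto1 and Neto2 are transmembrane proteins that bind the channel and slow its kinetics. In the hippocampus these receptors are best known from the mossy fibre synapses between dentate granule cells and CA3 pyramidal cells, where they act on both sides of the synapse, and from interneurons. Kainic acid, the agent used to make the mice epileptic, is the agonist after which the receptors are named.

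The promoters of the only member past the test threshold, Grik3, and of the most abundant member, Grik5, are shown because they belong to the genes at either end of the range of levels. Both come from RefSeq on GRCm38.p6, run 5′ to 3′ on the gene's strand from 250 bases before an annotated start site to 50 after it, and carry GC boxes (GGGCGG on either strand) in capitals. The Grik3 window lies at chr4:125490446-125490745 on the plus strand and the Grik5 window at chr7:25072320-25072619 on the minus strand. Both lie inside the annotated gene, whose outermost 5′ end is at 125490259 for Grik3 and 25075694 for Grik5. The start sites shown are thus internal ones.
Grik3: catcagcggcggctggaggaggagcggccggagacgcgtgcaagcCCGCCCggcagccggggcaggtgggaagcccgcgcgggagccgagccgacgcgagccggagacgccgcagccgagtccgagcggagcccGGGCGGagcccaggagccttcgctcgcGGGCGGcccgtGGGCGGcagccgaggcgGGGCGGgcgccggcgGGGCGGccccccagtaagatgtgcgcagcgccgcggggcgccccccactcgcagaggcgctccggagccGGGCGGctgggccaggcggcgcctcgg
Grik5: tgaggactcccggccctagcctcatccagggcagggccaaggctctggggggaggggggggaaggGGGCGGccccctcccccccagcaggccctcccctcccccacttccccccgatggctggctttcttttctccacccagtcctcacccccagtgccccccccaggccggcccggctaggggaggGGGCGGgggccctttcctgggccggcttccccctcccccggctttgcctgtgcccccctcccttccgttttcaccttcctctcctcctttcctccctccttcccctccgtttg
The Grik3 window held 7 GC boxes, 6 of them before the start site, and its GC content was 82%, above that of 99.5% of the 32851 promoter windows in the table. The Grik5 window held 2 GC boxes at a GC content of 72%. Windows of 5 of the 7 members were examined, namely Grik2, Grik3, Grik4, Grik5 and Neto2, the last with 2 windows. No window of Grik1 or Neto1 was examined, so nothing is said here of their promoters. Grik4 and 1 of the Neto2 windows held 2 GC boxes each, and Grik2 and the other Neto2 window held none, against 35.7% of all windows with at least 1. A cAMP response element (TGACGTCA), an EGR1 site (GCGGGGGCG) and a TATA box (TATAAA), each searched on both strands, were in none of these windows and in 1.79%, 2.91% and 13.6% of all windows. These matches describe letters in the window and not binding.

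Total reads assigned to genes ranged from 11839240 to 28311328 per library. The share of reads that did not map was lowest, 11.0%, in epileptic sgLacZ replicate 4 and highest, 41.5%, in epileptic sgKcna1 replicate 12. Differences of Grik3 are therefore also given without the first of these libraries, and some of Grik4 and Grik5 without the second. The correlations between genes below include both libraries. Kcna1 itself did not separate the groups: it averaged 35.1 ± 6.71 CPM (read counts after TMM scaling to equal library sizes; SD, n = 5) in control sgLacZ, 30.1 ± 14.5 (n = 6) in epileptic sgLacZ and 38.2 ± 46.5 (n = 6) in epileptic sgKcna1 mice, the last with 1 library at 133 and a median of 19.1, so this gene gave no check of the guide labels. Xist and Y-linked reads occurred together in 5 libraries, 2 control sgLacZ and 3 epileptic sgKcna1, with the rarer of these at 5% or more of the commoner one. The highest such share was 29.0%. The labels do not say whether each library holds tissue of a single mouse, and this was not tested. No marker gene of the neuronal and glial lists was at 0 in any library. In epileptic sgLacZ against control sgLacZ, the summed pan-neuronal markers (Rbfox3, Syt1, Snap25, Stmn2 and Eno2) lay at 4626 to 4887 CPM against 4930 to 5217, those of CA3 pyramidal cells (Bok, Cdh24, Iyd and Coch) at 124 to 161 against 162 to 210, those of dentate granule cells at 335 to 405 against 311 to 435, those of interneurons at 831 to 1390 against 1235 to 1544, and those of astrocytes at 1025 to 1472 against 931 to 1011. The interneuron markers differed in sign. In epileptic over control sgLacZ, Sst, Pvalb, Vip and Gad1 had log2 fold changes of -0.80, -1.01, -0.38 and -0.12. Gad2, Slc32a1 and Lhx6 stood at 0.27, 0.14 and 0.49, and none of these 7 genes passed the test threshold. The dentate granule cell markers differed in sign as well. C1ql2, Prox1 and Dsp stood at 0.48, 0.29 and 0.0067, against -0.40 for Calb1 and -0.67 for Tdo2, and none of them passed.

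Levels were compared between genes only per length, as RPKM (CPM divided by kilobases of transcript). Grik5, which encodes a high-affinity subunit, was by far the highest, at 103 RPKM on average over the 17 libraries. Neto1 followed at 25.2, then Grik2 at 10.6, Grik4 at 9.76, Neto2 at 7.42, Grik1 at 3.82 and Grik3, the lowest, at 3.09. Grik5 exceeded Neto1, Neto1 exceeded Grik2, and Neto2 exceeded Grik1 in 17 of 17 libraries. The closer neighbours overlapped: Grik2 was above Grik4 in 13 of 17 libraries, Grik4 above Neto2 in 14 and Grik1 above Grik3 in 15. With the longest annotated transcript as the length, Grik2 stood at 6.42 RPKM and dropped below Grik4 and Neto2, so the order of those 3 genes depends on the isoform assumed.

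**Figure D1:**
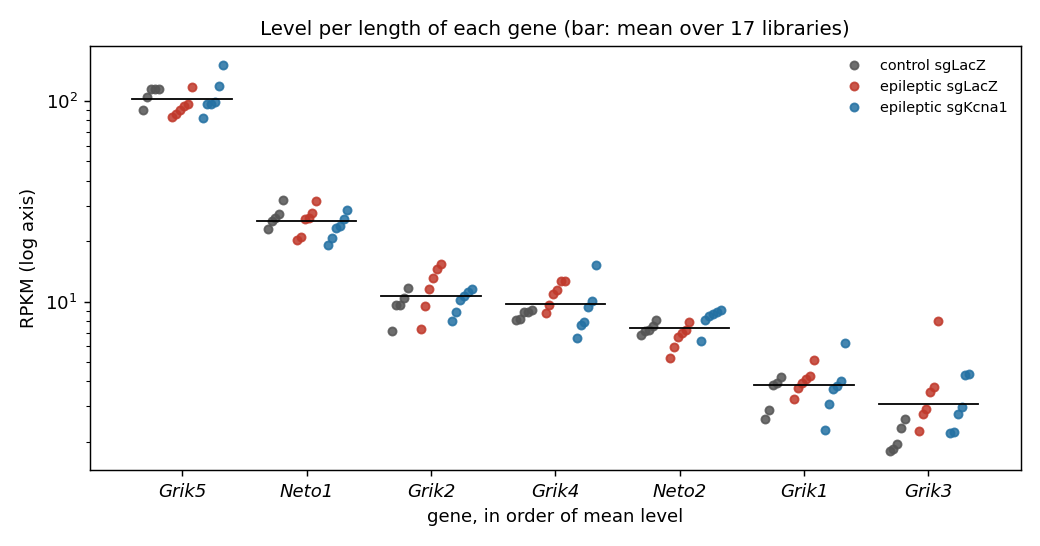
Level of each gene in RPKM (log axis), 1 point per library coloured by group, sorted by value within a group, with a black bar at the mean over 17 libraries. Grik5 lies apart at a mean of 103 and Grik3 is lowest at 3.09, while Grik2, Grik4 and Neto2 overlap.

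The first question was whether these genes differed between epileptic and control mice given the same control guide. Grik3 was the only 1 of the 7 genes past the threshold, an adjusted p under 0.05 in the quasi-likelihood test of edgeR (Benjamini-Hochberg, all tested genes). It was higher in epileptic sgLacZ mice by 1.84-fold. In that comparison 11% of all tested genes passed, 7.26% as higher and 3.76% as lower, so 1 of 7 is near the background share. The median log2 fold change of the 7 members was 0.22, beside 0.02 over all tested genes, and 2 of the 7 had an unadjusted p under 0.05, beside 34.7% of all genes. No member had groups without overlap, which 4.39% of all genes had.

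Among the subunits that form channels alone, Grik3 (ENSMUSG00000001985.9; GRCm38.p6 chr4:125490259-125714173) encodes GluK3, a subunit with low sensitivity to glutamate. It was read at 15.2, 14.9, 21.5, 16.3 and 19.5 CPM in control sgLacZ replicates 13, 14, 15, 16 and 23. In epileptic sgLacZ mice its CPM ran from 18.7 through a median of 26.8 to 66.6, and in epileptic sgKcna1 mice from 18.4 through 23.8 to 36.0. Of the epileptic sgLacZ libraries 5 of 6 lay above every control library, and the highest, replicate 4, stood far above the next at 31.2. Replicate 4 also stood apart from the rest of its group in the summed thalamus markers (106 CPM against 32.4 to 52.4) and in those of oligodendrocyte precursors (90.8 against 54.5 to 63.9), and their part in its Grik3 level was not tested. The log2 fold change of epileptic over control sgLacZ was 0.88 (SE 0.28, 95% interval 0.30 to 1.46, edgeR adjusted p = 0.0486).

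The Grik3 difference rested in part on that library. Without replicate 4, which also had the lowest unmapped share, the log2 fold change was 0.53 with an edgeR adjusted p of 0.124, and with the unmapped percentage as a covariate it was 0.48 with an adjusted p of 0.180. It stayed above 0 in all 9 alternative settings, 6 of which kept it past the threshold. When each of the 17 libraries was left out in turn it also stayed above 0, but it passed only in the 3 fits without epileptic sgLacZ replicates 5 and 8 and epileptic sgKcna1 replicate 12, and the adjusted p of the other fits ran from 0.0516 to 0.124. The unmapped share averaged 18.6% ± 5.01 (n = 6) in epileptic and 24.1% ± 3.38 (n = 5) in control sgLacZ libraries. In bulk tissue a change in the number of cells that express a gene and a change in RNA per cell cannot be told apart. The part of the marker sums in this difference was not tested. The pan-neuronal sum was led by Snap25, at 2455 ± 56.2 CPM in control and 2057 ± 126 in epileptic sgLacZ mice (log2 fold change -0.26), whereas Eno2 had a log2 fold change of 0.34 and Syt1 of -0.02, and none of the 5 pan-neuronal markers passed the threshold.

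**Figure D2:**
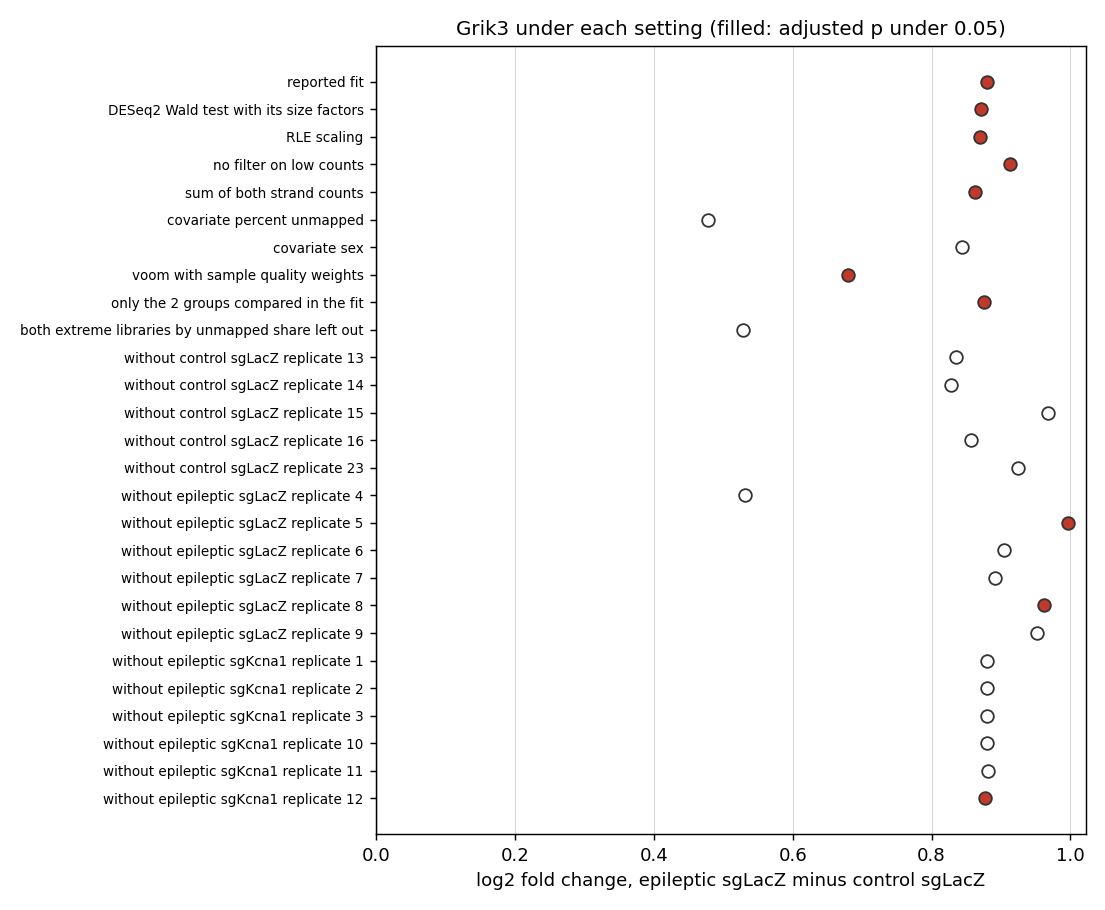
Log2 fold change of Grik3 in epileptic sgLacZ minus control sgLacZ mice (horizontal axis) under the reported fit, 9 alternative settings and the omission of each of 17 libraries, with filled points for an adjusted p under 0.05. Values span 0.48 to 1.00 and are lowest with the unmapped covariate and without epileptic sgLacZ replicate 4.

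Grik2 (ENSMUSG00000056073.16; chr10:49093680-49790161) encodes GluK2, the principal subunit of mossy fibre kainate receptors. It was read at 20.8, 27.9, 30.3, 33.9 and 28.0 CPM in the control sgLacZ libraries, in the same order of replicates. In epileptic sgLacZ mice its CPM ran from 21.3 through a median of 35.9 to 44.6, with 3 of 6 libraries above every control, and in epileptic sgKcna1 mice from 23.3 through 30.3 to 33.6, within the range of the controls. The log2 fold change of epileptic over control sgLacZ was 0.30 (SE 0.17, edgeR adjusted p = 0.217), so a change in either direction was not shown. Without epileptic sgLacZ replicate 5, the lowest of its group, it was 0.40 with an adjusted p of 0.0446. That was the only 1 of 17 single-library omissions to pass the threshold, and 0 of 9 alternative settings passed.

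Grik1 (ENSMUSG00000022935.16; chr16:87895901-88290863), which encodes GluK1 and is known mainly from interneurons, had the fewest reads, 64 to 391 per library. It was read at 7.52, 11.0, 9.99, 10.2 and 6.78 CPM in control sgLacZ mice. The epileptic sgLacZ libraries ran from 8.56 through a median of 10.5 to 13.3 CPM and the epileptic sgKcna1 libraries from 5.97 through 9.74 to 16.1, so all 3 groups overlapped. The log2 fold change of epileptic over control sgLacZ was 0.22 (SE 0.20, 95% interval -0.21 to 0.65, edgeR adjusted p = 0.454).

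Of the high-affinity subunits, Grik4 (ENSMUSG00000032017.14; chr9:42518182-42945000) encodes GluK4, which is enriched in CA3. It was read at 37.4, 37.6, 41.1, 41.9 and 40.8 CPM in control sgLacZ mice, with a coefficient of variation of 5.29%, the smallest of any member in any group. In epileptic sgLacZ mice its CPM ran from 40.3 through a median of 51.8 to 58.6, and in epileptic sgKcna1 mice from 30.3 through 39.9 to 70.0, the last in replicate 12. Of the epileptic sgLacZ libraries 5 of 6 lay above every control. The log2 fold change of epileptic over control sgLacZ was 0.35 (SE 0.17, unadjusted p = 0.0463, edgeR adjusted p = 0.138) and did not pass the threshold. It passed in 2 of 9 alternative settings. These were limma voom with sample weights (0.41, adjusted p = 0.00477) and only both groups in the edgeR fit (0.35, adjusted p = 0.0408). It also passed in 1 of 17 single-library omissions, that of epileptic sgKcna1 replicate 12 (0.35, adjusted p = 0.0340). In this comparison voom called 7301 of all genes. The summed CA3 markers, which were lower in the same libraries, consisted mostly of Bok, a gene of the Bcl-2 family, at 174 ± 20.9 CPM in control and 121 ± 16.1 in epileptic sgLacZ mice (log2 fold change -0.52, edgeR adjusted p = 0.0454). The other CA3 markers did not pass the threshold and differed in sign, with log2 fold changes of 0.41 for Cdh24, -0.05 for Coch and -0.29 for Iyd. Their part in the Grik4 values was not tested.

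Grik5 (ENSMUSG00000003378.9; chr7:25009849-25075694) encodes GluK5, the partner subunit found in most neuronal kainate receptors, and had 6201 to 10555 reads per library. It was read at 400, 439, 345, 442 and 442 CPM in control sgLacZ mice. The epileptic sgLacZ libraries ran from 319 through a median of 355 to 451 CPM and the epileptic sgKcna1 libraries from 317 through 375 to 579, again highest in replicate 12. The groups overlapped, and the log2 fold change of epileptic over control sgLacZ was -0.19 (SE 0.14, 95% interval -0.47 to 0.09, edgeR adjusted p = 0.327). With limma voom, which called 7301 of all genes, it was -0.23 with an adjusted p of 0.0481. That was the only 1 of 9 alternative settings to pass the threshold, and 0 of 17 single-library omissions passed.

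The auxiliary subunits showed the smallest differences in this comparison. Neto1 (ENSMUSG00000050321.3; chr18:86394815-86506721) was read at 81.5, 96.7, 91.8, 114 and 88.8 CPM in control sgLacZ mice, from 71.5 through a median of 92.1 to 112 in epileptic sgLacZ mice and from 67.9 through 83.5 to 101 in epileptic sgKcna1 mice. No library of either epileptic group lay above every control, and the log2 fold change of epileptic over control sgLacZ was -0.07 (SE 0.13, 95% interval -0.34 to 0.19, edgeR adjusted p = 0.716). Neto2 (ENSMUSG00000036902.11; chr8:85636718-85700952) was read at 35.2, 35.9, 40.1, 37.5 and 33.9 CPM in control sgLacZ mice and from 25.9 through a median of 33.7 to 39.0 in epileptic sgLacZ mice. Its log2 fold change was -0.15 (SE 0.11, edgeR adjusted p = 0.342), with overlapping groups.

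**Figure D3:**
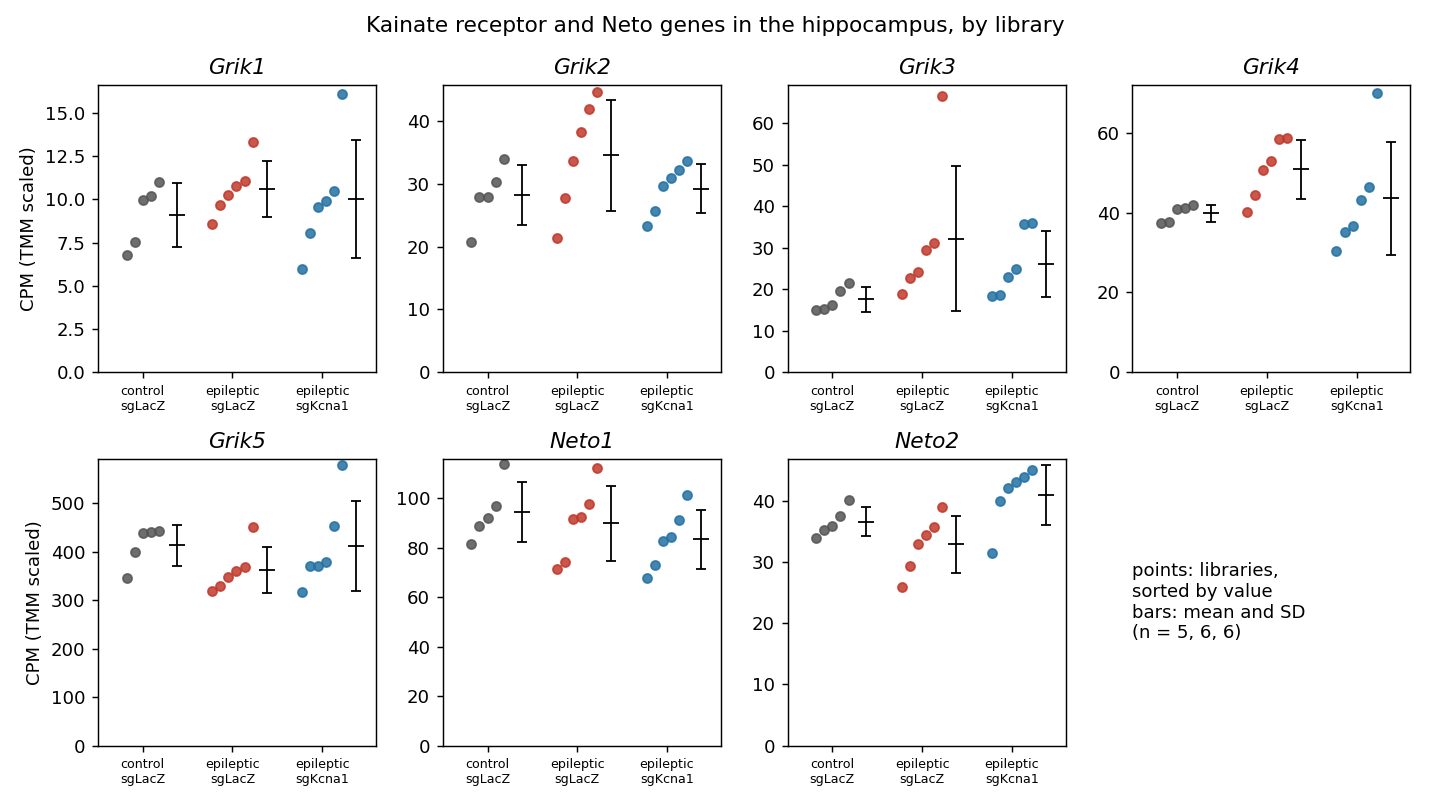
CPM of each gene (vertical axis from 0) in every library by group, points sorted by value within a group, with the mean and SD beside each group (n = 5, 6 and 6). Grik3 is higher in 5 of 6 epileptic sgLacZ libraries than in every control, with replicate 4 at 66.6, and Neto2 is higher in 5 of 6 epileptic sgKcna1 libraries than in every epileptic sgLacZ library.

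The second question was whether the guide to Kcna1 altered these genes in epileptic mice. None of the 7 passed the threshold, nor did any of the 17615 genes tested in edgeR (0%), of which 19.2% had an unadjusted p under 0.05. DESeq2 called 114 of all genes and none of the members. Neto2 was the 1 member with an unadjusted p under 0.05. Its CPM in epileptic sgKcna1 mice ran from 31.4 through a median of 42.5 to 45.1, and 5 of 6 of these libraries lay above every epileptic sgLacZ library while replicate 11 lay inside their range. The log2 fold change of epileptic sgKcna1 over epileptic sgLacZ was 0.31 (SE 0.11, 95% interval 0.09 to 0.54, edgeR adjusted p = 0.213), and it was 0.25 to 0.38 when each library was left out in turn. Marker sums of other tissue varied between the libraries of this comparison. Those of neocortex ran from 48.8 to 171 CPM in epileptic sgKcna1 libraries, with 119, 122 and 171 in replicates 1, 2 and 3, against 65.4 to 81.9 in epileptic sgLacZ libraries. Those of choroid plexus were 656 and 288 CPM in epileptic sgKcna1 replicates 1 and 2, and 3974 to 7767 in the other libraries of that group. They ran from 4302 to 11358 in epileptic sgLacZ and from 1191 to 12452 in control sgLacZ libraries. Their part in the member values was not tested.

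The other members gave log2 fold changes in epileptic sgKcna1 over epileptic sgLacZ mice between -0.30 for Grik3 and 0.18 for Grik5, with edgeR adjusted p from 0.381 to 0.838. For Grik3 the 95% interval was -0.84 to 0.24, and without epileptic sgLacZ replicate 4 the value was 0.05. For Grik4 the value was -0.23 (SE 0.16, edgeR adjusted p = 0.398), and -0.41 with an adjusted p of 0.251 without epileptic sgKcna1 replicate 12. For Grik5 it was 0.18 (SE 0.13), and 0.06 without that library.

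Epileptic sgKcna1 mice were also set against control sgLacZ mice, which share no guide. None of the 7 members and none of all genes passed in edgeR (0%), with 6.77% of all genes at an unadjusted p under 0.05, and DESeq2 called 38 genes and no member. Every member overlapped between these groups, as did all but 1.14% of the genes tested. Grik3 had a log2 fold change of 0.58 (SE 0.28, 95% interval 0.00 to 1.16, unadjusted p = 0.0497, edgeR adjusted p = 0.737), with 4 of 6 libraries above every control. The remaining members lay between -0.18 for Neto1 and 0.16 for Neto2. This comparison shares its control libraries with the first one and its treated libraries with the second, so the 3 sets of values are not independent.

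**Figure D4:**
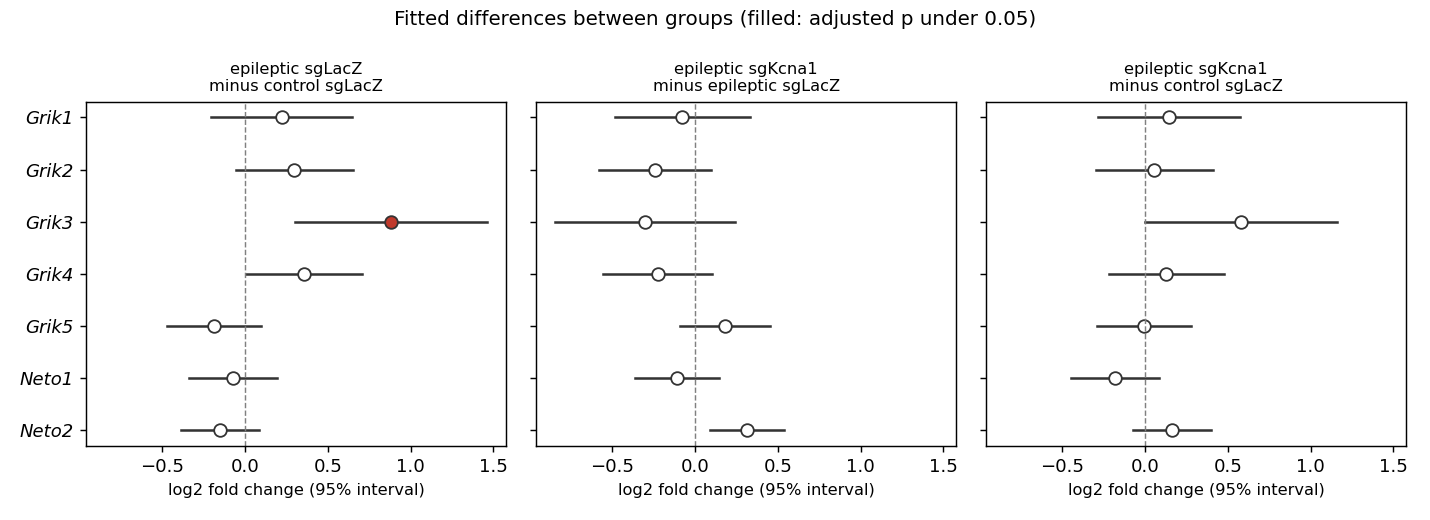
Log2 fold change with its 95% interval (horizontal axis) for each gene in the 3 comparisons, filled where the adjusted p was under 0.05. Only Grik3 in epileptic sgLacZ minus control sgLacZ is filled, at 0.88, and the interval of Neto2 in epileptic sgKcna1 minus epileptic sgLacZ runs from 0.09 to 0.54.

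The make-up of the Grik RNA pool was described as the share of each subunit gene in the summed RPKM of the 5 Grik genes, with no test. These are shares of RNA and not of receptor protein, and the order of Grik2 and Grik4 depends on the isoform assumed. Grik5 held 81.8% ± 2.44 (SD, n = 5) in control sgLacZ, 75.2% ± 5.98 (n = 6) in epileptic sgLacZ and 79.8% ± 3.02 (n = 6) in epileptic sgKcna1 mice, with overlapping ranges. The shares of the other subunits in control and epileptic sgLacZ mice were 7.38% and 9.58% for Grik2, 6.58% and 8.84% for Grik4, 2.66% and 3.26% for Grik1, and 1.62% and 3.12% for Grik3. In epileptic sgKcna1 mice each of these 4 means lay between those of the other groups. The summed Grik level was 132 ± 11.2, 125 ± 7.02 and 134 ± 25.1 RPKM in control sgLacZ, epileptic sgLacZ and epileptic sgKcna1 mice, and the differences were smaller than the largest of these SDs.

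The balance between subunits was described as ratios of RPKM, also with no test. The RPKM ratio of Grik5 to Grik4 was 12.5 ± 1.46 in control sgLacZ, 8.87 ± 2.53 in epileptic sgLacZ and 11.9 ± 3.34 in epileptic sgKcna1 mice, ranging from 10.1 to 14.1 in the first and from 6.75 to 13.5 in the second. The ratio of Neto1 to Neto2 was 3.64 ± 0.432, 3.86 ± 0.509 and 2.92 ± 0.690 in the same order of groups, again with overlap. Summed Neto RPKM stood at 0.260, 0.257 and 0.245 of summed Grik RPKM.

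Across the 17 libraries the log2 CPM of Grik2 and Neto1 varied most alike among pairs of members (Pearson r = 0.73, Spearman rho = 0.76, and r = 0.86 after group means were subtracted). Negative values were found for Grik2 and Grik5 (r = -0.58, rho = -0.50, and r = -0.51 after group means were subtracted) and for Grik3 and Grik5 (r = -0.50, rho = -0.51, and r = -0.43). Among 11686 genes with a mean of at least 5 CPM, those most like Grik3 were Pacsin1, which encodes a synaptic endocytosis adaptor (r = 0.95), Irgq (r = 0.94) and Ppm1l (r = 0.93). Those most like Grik5 were Syp, which encodes synaptophysin of synaptic vesicles (r = 0.93), Ppargc1b (r = 0.92) and Cdk5r1, an activator of the kinase Cdk5 (r = 0.91). Usp32, Lmo7 and Akap6 were nearest to Grik2 (r = 0.93 to 0.92), and Prpf6, Zfpm2 and Cflar to Grik4 (r = 0.91 to 0.89). Ppm1a was nearest to Neto2 (r = 0.93), followed by Samd10 (r = 0.85), Npy2r, a neuropeptide Y receptor, to Neto1 (r = 0.84), followed by Frmd4a (r = 0.84) and Rgmb (r = 0.82), and a gene with no symbol in the name table to Grik1 (r = 0.90), followed by Aloxe3 (r = 0.88) and 6330439K17Rik (r = 0.87). These values describe libraries that share scaling, mapping rate and group, and carry no test.

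A list of 23 genes for scaffolds, transporters, extracellular ligands and modifying enzymes of kainate receptors was set beside the members, of which 22 were tested. In epileptic against control sgLacZ mice 3 of the 22 were higher and 2 lower past the threshold, beside 7.26% and 3.76% of all tested genes, with a median log2 fold change of 0.22. Kif17, a kinesin that carries glutamate receptor cargo in dendrites, rose from 7.73 ± 2.35 (n = 5) to 18.4 ± 7.10 CPM (n = 6), a log2 fold change of 1.25 (edgeR adjusted p = 0.0320). Nrxn3, a presynaptic neurexin that with C1q-like proteins recruits kainate receptors at mossy fibre synapses, fell from 372 ± 34.6 to 216 ± 50.3 CPM, a log2 fold change of -0.78 (edgeR adjusted p = 0.0347).

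Another call in that list, Adar, an RNA editing enzyme, rested on how overlapping genes were counted. Both strand counts together were 3.26 times its unstranded count. Since the reads do not mark strand, that sum can also hold reads of an overlapping gene. The log2 fold change of Adar, 2.01 (edgeR adjusted p = 0.0320), became 0.41 (adjusted p = 0.0521) with both strand counts summed. Which count is nearer to Adar alone was not tested. The calls of Kif17, Nrxn3 and Adar each held in 10 of 17 single-library omissions. In epileptic sgKcna1 against epileptic sgLacZ mice none of the 22 passed. The smallest p-values belonged to Nrxn3 (log2 fold change 0.72), C1ql2, a C1q-like synaptic ligand (-0.71), and Adar (-1.20), all with an edgeR adjusted p of 0.213. C1ql2 is also among the dentate granule cell markers above. In epileptic sgKcna1 against control sgLacZ mice none passed either, and Dlg1, a scaffold (0.27), Kif17 (0.64) and Cdh2, an adhesion protein (0.24), came nearest, with edgeR adjusted p of 0.695, 0.695 and 0.747.

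Of 13 genes for AMPA, NMDA and delta receptor subunits, the other ionotropic glutamate receptors, 12 were tested. In epileptic against control sgLacZ mice Gria2 alone passed, beside 11% of all tested genes, so 1 of 12 is near the background share. Gria2 encodes the AMPA receptor subunit that limits calcium entry. Its level fell from 1351 ± 68.8 (n = 5) to 855 ± 222 CPM (n = 6), a log2 fold change of -0.66 (edgeR adjusted p = 0.0333), which passed in 9 of 9 alternative settings and in 9 of 17 fits that left out a library. None of the 12 passed in epileptic sgKcna1 against epileptic sgLacZ mice, where Gria2 had a log2 fold change of 0.43, Gria1 of -0.34 and Grin2d of -0.63 (edgeR adjusted p = 0.213, 0.217 and 0.245). None passed against control sgLacZ mice, where Gria2 stood at -0.23, Gria4 at 0.39 and Gria1 at -0.17, with edgeR adjusted p of 0.789 to 0.798. The 12 genes had a median log2 fold change of 0.13 in epileptic over control sgLacZ mice, beside 0.22 for the kainate receptor and Neto genes and 0.02 over all tested genes.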

How the data were processed

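Hippocampal polyadenylated RNA from 17 samples was sequenced, 1 library per sample. Per the labels and the study's methods, the authors aligned reads to mm10 with STAR 2.7 and deposited counts of reads per gene for 55450 genes, as whole numbers with no normalization, for either strand and for each strand alone. The annotation release is not given in the sources used here. The labels name a kit that does not mark strand and the methods a stranded one. Reverse and forward counts were in a ratio of 0.994 to 0.998, so the unstranded counts were used. Reads in 2 overlapping genes are counted for neither, and reads mapping to several places are left out. For the 7 members, both strand counts together were at most 1.12 times the unstranded count. The 4 summary lines (unmapped, multiply mapped, outside genes, ambiguous) held 22.1% to 54.5% of reads and were left out.

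The statistical tests were run with edgeR 4.0.16 (R 4.3.3): filterByExpr by group, TMM scaling, 1 coefficient per group for all 17 libraries in a single fit, and a two-sided quasi-likelihood F test with adjustment over 17615 genes at 0.05. The fit was also run on simulated counts with the same spread for every gene and libraries that differed only in depth. That run does not measure how reliable the calls in these data are. Alternatives used DESeq2 1.42.0 (the study's tool) and limma 3.58.1, other scaling, filter and strand choices, covariates, and omission of single libraries. Sex was not labelled per library and was read from Xist and Y-linked counts for a covariate only. Xist exceeded Y-linked reads in 2 of 5 control sgLacZ, 4 of 6 epileptic sgLacZ and 2 of 6 epileptic sgKcna1 libraries. Sex as read was thus not balanced between the groups. Kilobases are median transcript lengths from GENCODE models on the older NCBIM37 build. Coordinates and promoters are RefSeq on GRCm38.p6, matched by symbol; 32620 genes had one. Named genes beyond the members and Kcna1 are list genes past the threshold, or otherwise the 3 with the smallest p, and the 3 genes most like each member. Some genes that meet these rules are not reported here. The members, lists and marker genes were chosen with earlier results of these data known. Labels give separate samples but not whether each is a single mouse, nor litters or processing batches, so p-values measure the spread between these samples. In the deepest library 3 reads equal 0.106 CPM. No 2 libraries of a group agreed within sampling noise over 40 pairs.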

Additional observations from a re-analysis of the deposited data

Results flagged for a closer look

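Of 21 groups of values (7 genes in 3 groups), 2 held a library far from the others, where chance would give about 1 in 20. Grik3 in epileptic sgLacZ replicate 4 stood at 66.6 CPM, and the next library of that group stood at 31.2, a gap of 0.739 of the whole range against a critical value of 0.625. Neto2 in epileptic sgKcna1 replicate 11 stood at 31.4 CPM below the next library at 40.0, a gap of 0.630 of the range against the same critical value. Replicate 4 also had the lowest share of unmapped reads, 11.0%. The part of replicate 4 in the Grik3 differences above is given by the values without it. For Neto2 in epileptic sgKcna1 over epileptic sgLacZ mice only the range over all single omissions, 0.25 to 0.38, is given.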

How the results depend on the processing

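No paired analysis was possible because the groups share no replicate numbers. 

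Epileptic against control sgLacZ: the count of members past the threshold, 1, was 0 with the unmapped percentage or sex as a covariate or without both libraries extreme in unmapped share (a setting chosen after seeing the data), 3 with voom, 2 with only both groups fitted, and 0 to 2 when single libraries were left out. Grik3 lost the call at 0.48, 0.84 (adjusted p = 0.0720) and 0.53 (adjusted p = 0.0544) in the first 3 of these settings, and spanned 0.53 to 1.00 over single omissions. All genes called, 1940, became 3538 with DESeq2, 428 with unmapped percentage, 516 with sex, 7301 with voom, 3045 with both groups alone, 3106 without both extreme libraries, and 0 to 5526 over single omissions. Epileptic sgKcna1 against epileptic sgLacZ gave 0, and 114 with DESeq2, 1 unfiltered, 12 with voom and 0 to 1508 over omissions. Epileptic sgKcna1 against control gave 0, and 38 with DESeq2, 266 with unmapped percentage, 71 with voom, 88 without both extremes and 0 to 14 over omissions. Members called in these 2 comparisons stayed at 0.

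Signs turned only among values that were not called. In epileptic against control sgLacZ, Grik1 was -0.00696 with the unmapped covariate and Neto1 spanned -0.144 to 0.00473 over omissions. In epileptic sgKcna1 against epileptic sgLacZ, the unmapped covariate gave Grik1 0.157, Grik2 0.0153, Grik3 0.154, Grik5 -0.0282 and Neto1 0.0617, the extremes' removal Grik1 0.10, Grik3 0.13 and Neto1 0.0138, and omissions spanned -0.264 to 0.0255 for Grik1 and -0.416 to 0.0511 for Grik3. In epileptic sgKcna1 against control, Grik5 was 0.000283 with sex, Grik4 -0.0279 with voom and -0.0608 without the extremes, and omissions spanned -0.0452 to 0.242 for Grik1, -0.0358 to 0.130 for Grik2, -0.0631 to 0.216 for Grik4 and -0.138 to 0.0576 for Grik5. The cause was not tested.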
